A study of Mus musculus with 2 samples.

Results

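The cytosolic ribosomal protein genes were taken by symbol: Rpl or Rps followed by a digit, Rplp0, Rplp1, Rplp2 or Rpsa, without pseudogenes marked -ps and without the Rps6k kinases. The rule found 86 of the 27514 genes that both gene tables list. Of these, 77 encode canonical proteins of the ribosome, 31 of the small and 46 of the large subunit. The other 9 are the paralogs Rpl22l1, Rps27l, Rpl36al, Rpl39l, Rpl3l, Rpl10l and Rps27rt, the biogenesis factor Rpl7l1, and Rps19bp1, which encodes a binding partner of Rps19 and no ribosomal protein. They were described in organoids, 3-dimensional cultures, grown from intestinal adenomas of 17 weeks old C57BL/6 mice of genotype ApcMin/+, so that both cultures carried Min, a loss-of-function allele of Apc, whose product holds Wnt signalling in check. An untreated control culture was compared with a culture given RSPO1-Fc, in which R-spondin 1, an enhancer of Wnt signals, is joined to the Fc part of an antibody. The protocol sets the dose at 10 μg/ml, and a second label writes milligrams for the same number. Each culture gave 1 droplet library of 3′ tags counted by unique molecular identifiers (UMIs), so no difference between the cultures has a replicate check and no test was possible. How many mice gave the cells is not given in the sources used here.

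The ribosome makes protein in every cell. Its small subunit reads the mRNA and its large subunit forms the peptide bonds, and each canonical protein is present once per ribosome except the acidic proteins of the stalk. Vertebrate ribosomal protein mRNAs start with a 5′ terminal oligopyrimidine tract, an uninterrupted stretch of C and U through which mTOR signalling sets their translation. In the intestine, Wnt signalling and its target Myc drive growth of the crypts and of adenomas, and ribosome production is one of the outputs of Myc.

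Some members hold such a run within 15 bases of their annotated start in the genome and some do not. The following windows hold 15 bases before and 15 bases from the start in RefSeq's GRCm38.p6 annotation, in the sense of the gene, with the longest unbroken run of C or T in capitals. Rpl13a, Rpl35, Rps27, Rpl38 and Rpl22l1 are shown because they were among the 10 members most in excess in the RSPO1-Fc library, Rpl15 and Rps10 because they were among the 10 at the other end, and Rpl22 because it is the canonical partner of Rpl22l1.
Rpl13a (chr7:45128731-45128760, minus strand): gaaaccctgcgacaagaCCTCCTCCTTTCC
Rpl35 (chr2:39005117-39005146, minus strand): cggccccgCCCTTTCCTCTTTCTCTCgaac
Rps27 (chr3:90213634-90213663, minus strand): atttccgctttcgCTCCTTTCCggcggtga
Rpl38 (chr11:114668565-114668594, plus strand): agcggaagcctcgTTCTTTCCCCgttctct
Rpl22l1 (chr3:28805493-28805522, plus strand): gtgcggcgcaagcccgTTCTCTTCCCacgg
Rpl15 (chr14:18270972-18271001, minus strand): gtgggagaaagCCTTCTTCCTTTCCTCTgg
Rps10 (chr17:27635230-27635259, minus strand): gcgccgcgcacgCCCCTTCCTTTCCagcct
Rpl22 (chr4:152325711-152325740, plus strand): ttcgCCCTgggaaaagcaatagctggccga
Promoter entries were matched for 66 members, 57 of them canonical. A run of at least 6 C or T within this window was found in 32 of the 57 canonical members (56.1%), against 29.1% of 27025 promoters. Members at both ends of the comparison carried one: the runs were 13 bases in Rpl13a, 18 in Rpl35 and 17 in Rpl15. A run could lie anywhere in the window, also wholly before the start, as the 9 bases in Rpl13 do. Such a run is outside the annotated transcript, so this class does not mark which mRNAs begin with a tract. With RSPO1-Fc set against control, the median log2 ratio was 0.33 over the 32 canonical members with a run and 0.40 over the 25 without. Ratios reached further in both directions among members with a run (-1.17 to 3.98) than among those without (-0.35 to 1.14). With a run, 6 were at least 2-fold higher and 1 lower, and without, 1 was higher and 0 lower. Among all genes, 6.95% were at least 2-fold higher and 17.9% at least 2-fold lower. The letters CCGGAAG on either strand, the core bound by ETS factors such as GABP, were found between 250 bases before and 50 after the start in 23 of the 57 (40.4%), against 9.12% of all promoters. The median log2 ratio was 0.43 with these letters and 0.35 without. A match describes the letters and shows no binding.

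Barcodes counted as cells from 9810 UMIs (control) or 5960 UMIs (RSPO1-Fc), and those with at least 5 Epcam UMIs as epithelial. This left 1881 of 2269 control cells and 2751 of 2767 RSPO1-Fc cells. All 8 epithelial markers were detected in both epithelial groups, summing to 8288 CPM (UMIs scaled to an equal total over shared genes) in control and 10014 CPM in RSPO1-Fc. Median depth was 27736 UMIs in control and 23548 UMIs in RSPO1-Fc epithelial cells. Macrophage markers, 9 genes, summed to 139 CPM in the control epithelial cells with 9 detected, and to 5.46 CPM in the RSPO1-Fc cells with 5 detected. The 388 control cells under 5 Epcam UMIs comprised 182 macrophages, 78 endothelial cells, 68 fibroblasts, 11 pericytes or smooth muscle cells and 49 others. The 4 lineages were named from their markers, and the 49 others passed the rule of no lineage. Among these 49, 34 had at least 10 UMIs of the fibroblast list, 33 of the pericyte or smooth muscle list and 10 of the macrophage list. RSPO1-Fc had 16 cells under 5 Epcam UMIs, which carried the epithelial markers (7108 CPM) and none of the 9 macrophage or 6 fibroblast markers. These cells held 1 of 8 endothelial markers (50.6 CPM) and 3 of 8 pericyte or smooth muscle markers (43.3 CPM). The other lineages were measured in the control library only. The libraries shared 0 cell barcodes. The gene tables differ in length, the control header names a later Cell Ranger than the labels, and the length of the control barcode list belongs to another chemistry than the labelled v2. Chemistry, counting software and RSPO1-Fc therefore cannot be told apart in any value that compares the 2 libraries.

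Ribosomal protein transcripts made up a larger part of the epithelial transcriptome in the RSPO1-Fc culture. The 86 members held 21.31% of UMIs in control epithelial cells (14257550 of 66892855, 95% Clopper-Pearson interval 21.30 to 21.32) and 28.01% in RSPO1-Fc epithelial cells (19688107 of 70299300, interval 28.00 to 28.02). The share was 1.31-fold higher (1.313 to 1.315), where intervals here and throughout cover counting error only and not variation between cells or cultures. Mitochondrially encoded genes went the other way, with 6.39% of UMIs in control and 3.61% in RSPO1-Fc cells. With their UMIs left out of the total, the log2 ratio of the share was 0.35 in place of 0.39.

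Single cells showed the same order with wide overlap. The share per control epithelial cell had a median of 20.6%, with a lowest value of 2.01% and a highest of 36.4%. In RSPO1-Fc epithelial cells the median was 28.4%, the lowest 5.49% and the highest 38.4%. The upper quartile of control cells (24.4%) was close to the lower quartile of RSPO1-Fc cells (24.4%).

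**Figure D1:**
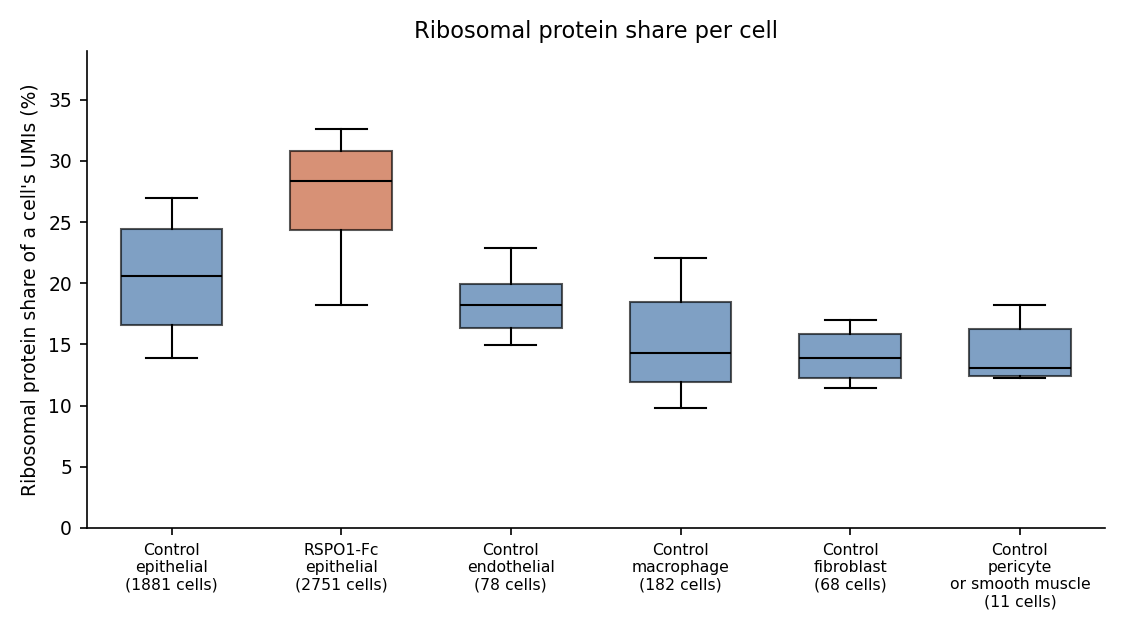
Ribosomal protein share of each cell's UMIs (%, vertical axis) in epithelial cells of both libraries and in 4 control lineages. Boxes span the quartiles with the median as a line, whiskers reach the 10th and 90th percentile, blue is control and orange is RSPO1-Fc; the medians are 20.6% and 28.4% in epithelial cells and lie between 13.1% and 18.2% in the other lineages.

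Free RNA, the UMIs in barcodes with over 100 and up to 500 UMIs, held the same difference between libraries. Members took 19.9% of free UMIs in control and 26.1% in RSPO1-Fc, again 1.31-fold. In free RNA 13 of 83 members (15.7%) were at least 2-fold higher with RSPO1-Fc, beside 10.4% of all genes. The part of free RNA or of library chemistry in the difference between epithelial cells was not tested. Depth moved with the share within each library too. In control cells the share was 18.4% in the 627 cells with the fewest UMIs (median 16722), 21.6% in the middle 627 and 22.0% in the 627 with the most (median 53840). The corresponding shares in RSPO1-Fc cells were 24.8%, 27.5% and 29.5% over 917 cells each, with median depths of 14763, 23548 and 36056 UMIs. The share was thus higher in each RSPO1-Fc group than in the control group of the same rank, and 24.8% in the shallowest RSPO1-Fc group against 22.0% in the deepest control group. The groups were cut within each library and not matched in depth. The part of depth in the difference between libraries was not tested.

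Most members, but not all, lay above their control level. Of the 86, 83 reached 20 CPM in at least 1 epithelial group, and 67 of these were higher and 16 lower in RSPO1-Fc. With TMM scaling, which raises every log2 ratio by 0.34, 77 were higher and 6 lower, and the share of all genes that were higher went from 41.7% to 60.1%. The median log2 ratio of the 83 was 0.43, against -0.18 over all 6911 genes at 20 CPM. At least 2-fold higher were 11 members (13.3%), where 6.95% of all genes were past that fold. At least 2-fold lower was 1 member, Rpl15 (1.20%), against 17.9% of all genes. At 1.5-fold, 30 members (36.1%) were higher against 15.5% of all genes, and 2 were lower, Rpl15 and Rpl30, against 31.4%. TMM scaling gave 27 members at least 2-fold higher, beside 13.7% of all genes, and 0 lower, beside 10.7%.

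**Figure D2:**
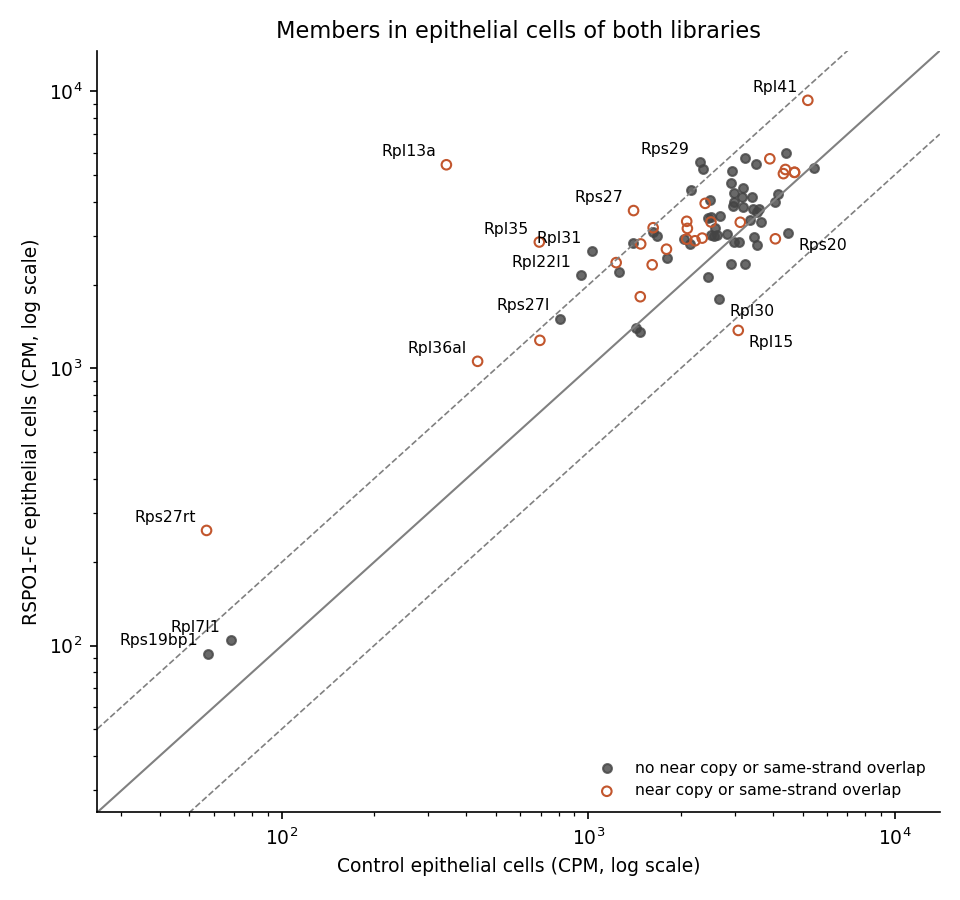
CPM of each of the 83 members at 20 CPM or more in control (horizontal, log scale) and RSPO1-Fc (vertical, log scale) epithelial cells. The solid line marks equal levels and the dashed lines a 2-fold difference. Open orange circles are members with a near copy or same-strand overlap, whose reads may also fit another gene. Rpl13a stands far above the lines at 344 and 5429 CPM, and Rpl15 is the only point below the lower dashed line.

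Some of these genes have near-identical copies in the genome, and reads of 91 bases may fit both. How such reads were counted was not tested, and adding the UMIs of a copy need not restore reads that were left out. A member was marked uncertain when another gene of either table overlapped it on its strand or shared at least 10% of the 50-base words in the last 400 bases of its transcripts, which held for 28 members. The 51 canonical members without such a partner had a median log2 ratio of 0.31, with 37 higher and 14 lower. At least 2-fold higher were 5 and at least 2-fold lower 0, beside 6.95% and 17.9% of all genes. The 26 canonical members with a partner had a median of 0.55, with 24 higher and 2 lower.

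Among the small subunit proteins, 24 of 31 were higher and the median log2 ratio was 0.37. Rps27, a zinc-finger protein of the 40S platform, had 1404 CPM in control and 3711 CPM in RSPO1-Fc epithelial cells (2.64-fold, 2.62 to 2.66). In free RNA it had 1290 CPM (control) and 3282 CPM (RSPO1-Fc). Its near copy Rps27rt, a retrogene, had 56.8 CPM in control and 260 CPM in RSPO1-Fc cells, and reads of this pair cannot be split with certainty. Rps29, which sits in the head of the small subunit, had 2307 CPM in control and 5539 CPM in RSPO1-Fc cells (2.40-fold, 2.39 to 2.42) and has no such copy. These were the only canonical small subunit members at least 2-fold apart.

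At the low end of this subunit stood Rps20, with 4477 CPM in control and 3083 CPM in RSPO1-Fc cells (1.45-fold lower, 1.44 to 1.46). Rps10, a protein of the mRNA entry region, had 3248 CPM in control and 2382 CPM in RSPO1-Fc cells (1.36-fold lower). For Rpsa, also known as the laminin receptor, the levels were 3559 CPM and 2791 CPM in the same order. Rps21, which binds Rpsa, had 2455 and 2128 CPM. Rps12 had 4073 CPM in control and 2935 CPM in RSPO1-Fc cells (1.39-fold lower), but its near copy Rps12-ps3 held 1073 UMIs in control and 27060 in RSPO1-Fc cells. Adding the copy to Rps12 brought the log2 ratio from -0.47 to -0.30. With TMM scaling, Rps20, Rps10, Rps12 and Rpsa kept a negative log2 ratio (-0.20, -0.11, -0.13 and -0.01), while Rps21 turned positive.

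The large subunit had 37 of 46 members higher, with a median log2 ratio of 0.40, and it held the widest differences. Its summed share was 11.8% of UMIs in control and 16.0% in RSPO1-Fc epithelial cells, while that of the small subunit was 9.26% and 11.5%. The ratio of large to small subunit UMIs was therefore 1.27 in control and 1.39 in RSPO1-Fc cells. Free RNA gave 1.25 and 1.39. The control lineages lay at 1.21 in macrophages, 1.24 in endothelial cells and 1.33 in fibroblasts. The large subunit sum includes Rpl13a (344 CPM in control and 5429 CPM in RSPO1-Fc epithelial cells), whose part in the ratio was not tested.

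Rpl13a, a large subunit protein that also takes part in the interferon-gamma response of myeloid cells, differed most. It had 344 CPM in control epithelial cells (23030 UMIs) and 5429 CPM in RSPO1-Fc epithelial cells (381671 UMIs), a 15.8-fold difference (15.6 to 16.0). By UMIs it was number 80 of the 86 members in control and number 7 in RSPO1-Fc cells. A UMI of it was found in 98.7% of control and 100% of RSPO1-Fc epithelial cells. The low level was shared by every control population, with 201 CPM in macrophages, 264 in endothelial cells, 208 in fibroblasts and 292 in free RNA, while RSPO1-Fc free RNA had 5079 CPM. The gene (ENSMUSG00000074129, GRCm38 chr7:45125558-45128761, minus strand) is overlapped over 2840 bases on its own strand by the protein-coding model Gm45713, which both tables list. Gm45713 itself held 1 UMI in control and 26 in RSPO1-Fc epithelial cells. The part of this overlap in the difference was not tested. Without Rpl13a, the log2 ratio of the family's share was 0.37.

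Rpl35, a protein at the exit of the peptide tunnel, had 692 CPM in control and 2858 CPM in RSPO1-Fc epithelial cells (4.13-fold, 4.09 to 4.17). It has the near copies Gm2000 and Gm10269, and with both added the fold was 4.19. Rpl31, likewise at the tunnel exit, had 1028 and 2649 CPM (2.58-fold, 2.55 to 2.60) and has no near copy. For Rpl37a the levels were 2372 and 5245 CPM (2.21-fold). Rpl38, which is required for translation of Hox mRNAs in the mouse embryo, had 1398 CPM in control and 2841 CPM in RSPO1-Fc cells (2.03-fold). Rpl14 had 2168 and 4403 CPM (2.03-fold). In free RNA, Rpl35, Rpl31, Rpl37a, Rpl38 and Rpl14 were also higher in the RSPO1-Fc library, at 2557, 2646, 4961, 3258 and 4240 CPM against 696, 902, 2828, 1746 and 1890 CPM.

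**Figure D3:**
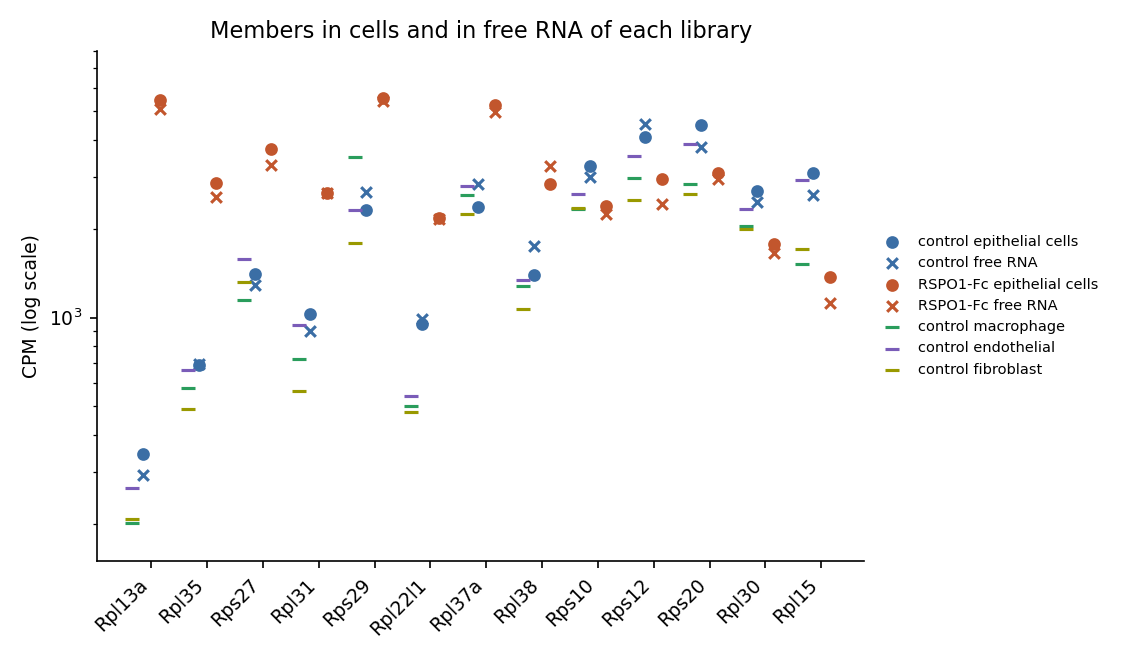
CPM (log scale, vertical axis) of 13 members in epithelial cells (circles) and free RNA (crosses) of the control (blue) and RSPO1-Fc (orange) libraries, with control macrophages, endothelial cells and fibroblasts as short lines. For Rpl13a all control populations lie at or below 344 CPM while RSPO1-Fc cells and free RNA lie above 5000 CPM; Rpl15 has the opposite order of the 2 libraries.

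Rpl15 (ENSMUSG00000012405, GRCm38 chr14:18267823-18271391, minus strand), a large subunit protein that is needed for 60S assembly, was the only member at least 2-fold lower. It had 3083 CPM in control and 1371 CPM in RSPO1-Fc epithelial cells (2.25-fold lower, 2.23 to 2.26). Free RNA had 2598 CPM (control) and 1121 CPM (RSPO1-Fc). Its copy Gm10020, which the RSPO1-Fc table alone lists, held 5085 UMIs there, and with these added the log2 ratio was -1.09 in place of -1.17. The part of this listing in the Rpl15 count of that library was not tested. Rpl15 kept a negative ratio under TMM scaling (-0.83).

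Rpl30, whose protein binds its own transcript in yeast, had 2673 CPM in control and 1775 CPM in RSPO1-Fc cells (1.51-fold lower, 1.49 to 1.52), with no near copy. Rpl12, at the base of the stalk, had 2926 and 2383 CPM, Rpl28 had 3459 and 2983 CPM, and Rpl34 had 3111 and 2860 CPM. The log2 ratio of Rpl30 was -0.25 under TMM scaling, whereas Rpl12, Rpl28 and Rpl34 turned positive.

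The stalk, which recruits elongation factors, is built of Rplp0 and the acidic proteins Rplp1 and Rplp2. Rplp0 had 4327 CPM in control and 5044 CPM in RSPO1-Fc epithelial cells (1.17-fold). Rplp1 had 4703 and 5095 CPM (1.08-fold). In free RNA Rplp1 had the opposite order, with 4879 and 4246 CPM. Rplp2 had 2405 and 3941 CPM (1.64-fold). All of them have near copies, and with those added the folds were 1.23, 1.16 and 1.73.

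Among the leading members by UMIs in control epithelial cells were Rpl41 (5198 CPM), Rpl13 (4705), Rplp1, Rps20, Rpl32 (4404), Rps2 (4392), Rplp0, Rpl23 (4139) and Rps12. A 3′ tag is counted once per captured transcript end, so these values are not divided by transcript length. In RSPO1-Fc epithelial cells Rpl41, the shortest ribosomal protein, led with 9274 CPM, followed by Rpl32 with 5999 CPM. The copy Gm10076 of Rpl41 had 140 CPM in control and 2453 CPM in RSPO1-Fc cells, and with it added Rpl41 was 2.20-fold higher in place of 1.78-fold. Rpl13, Rps2 and Rpl23 had 5102, 5221 and 4274 CPM in RSPO1-Fc cells.

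Taken as parts of the family total, which no scaling of the library moves, the members spread around equal levels. With every log2 ratio set relative to the family share, 46 members were higher and 37 lower, 4 of them at least 2-fold higher and 1 at least 2-fold lower, with a median of 0.03. Over the 77 canonical members the fold within the family ran from 0.34 (Rpl15) to 12.0 (Rpl13a). The counted ribosomal protein UMIs thus differed between the libraries in makeup as well as in share. Rpl15 and Rpl13a, at the ends of this range, both have a near copy or same-strand overlap. The part of gene models in the range was not tested.

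Members on chromosome X are Rps4x, Rpl10, Rpl36a and Rpl39. Rps4x had 2516 CPM in control and 3509 CPM in RSPO1-Fc epithelial cells (1.39-fold), and Rpl39 had 2492 and 4065 CPM (1.63-fold). Rpl36a had 1232 and 2408 CPM (1.95-fold), and Rpl10, the last protein to join the 60S subunit, had 1627 and 3218 CPM (1.98-fold). Their median log2 ratio was 0.84, against 0.37 over the 73 canonical autosomal members. Rpl10 and Rpl36a have near copies.

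In each pair of a canonical protein and its expressed paralog the balance differed between libraries and lineages. Rpl22l1 (ENSMUSG00000039221, GRCm38 chr3:28805436-28807424, plus strand), the paralog of Rpl22, had 948 CPM in control and 2172 CPM in RSPO1-Fc epithelial cells (2.29-fold), while Rpl22 had 1433 and 1404 CPM. Rpl22l1 therefore held 39.8% of the pair's UMIs in control cells (39.6 to 40.1) and 60.7% in RSPO1-Fc cells (60.5 to 60.9). It held 31.6% in control macrophages, 27.4% in endothelial cells and 32.0% in fibroblasts. Its share in free RNA was 38.0% (control) and 58.5% (RSPO1-Fc). Neither gene has a near copy or a same-strand overlap, although the antisense model Gm33051 overlaps Rpl22l1 over 220 bases.

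Rps27l, a p53 target, had 807 CPM in control and 1514 CPM in RSPO1-Fc cells (1.88-fold), but because Rps27 differed more, its share of the pair was 36.5% in control and 29.0% in RSPO1-Fc cells. The share was lower in control endothelial cells (19.6%), fibroblasts (23.7%) and macrophages (28.4%). Rpl36al, the autosomal partner of X-linked Rpl36a, had 435 and 1061 CPM, with a share of 26.1% in control epithelial cells, 30.6% in RSPO1-Fc epithelial cells, 31.6% in macrophages, 17.4% in endothelial cells and 24.4% in fibroblasts. It overlaps the model Gm49383, which the control table alone lists and which held 1 UMI. Rpl7l1 had 68.3 and 105 CPM, or 1.95% and 2.70% of the UMIs of Rpl7 and Rpl7l1.

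**Figure D4:**
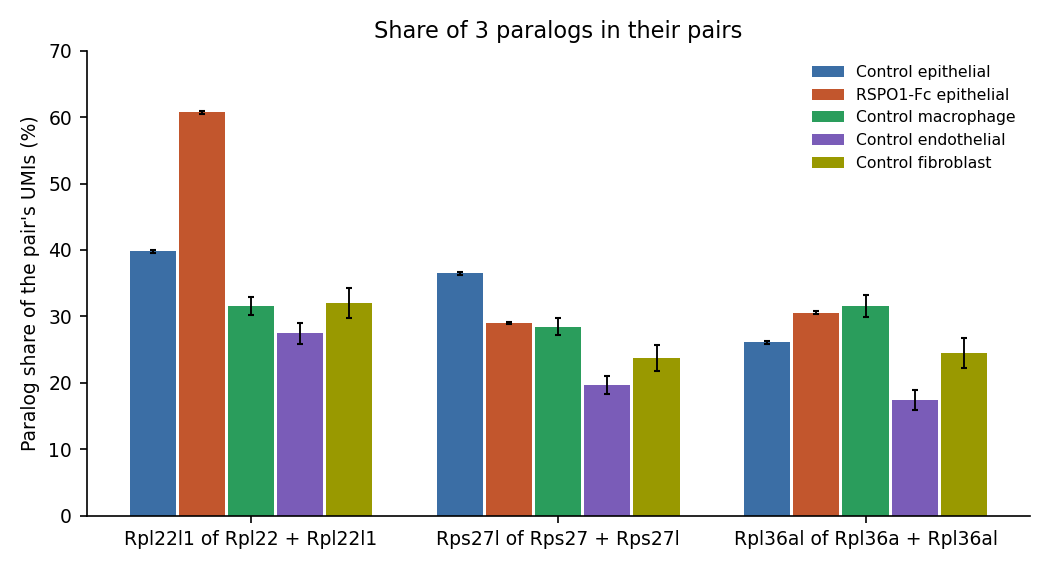
Share of the paralog in the UMIs of its pair (%, vertical axis, from 0) for 3 pairs in epithelial cells of both libraries and in 3 control lineages. Error bars are 95% Clopper-Pearson intervals; Rpl22l1 exceeds 50% in RSPO1-Fc epithelial cells alone (60.7%), and the endothelial bars are the lowest of each pair.

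Paralogs known from testis or muscle were near 0. Rpl39l had 0 UMIs in control epithelial cells beside 166690 of Rpl39, which allows a share of up to 0.00180%, and 1 UMI in RSPO1-Fc cells. Rpl10l had 0 and 1 UMI. Rpl3l, the muscle paralog of Rpl3, had 10 UMIs in control epithelial cells, 10 in control macrophages and 0 in RSPO1-Fc epithelial cells. Rps19bp1 had 57.6 CPM in control and 93.6 CPM in RSPO1-Fc epithelial cells.

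Within the control library, all 4 other lineages held a smaller share of ribosomal protein UMIs than the epithelium. The share was 18.6% in endothelial cells (1.14-fold lower), 15.2% in macrophages (1.40-fold lower), 14.2% in pericytes or smooth muscle cells and 14.1% in fibroblasts (1.51-fold lower). Median depth was 17367 UMIs in endothelial cells, 14589.5 in macrophages, 12816 in pericytes or smooth muscle cells and 14235 in fibroblasts, below the epithelial 27736 UMIs. In the 627 control epithelial cells with the fewest UMIs, whose median depth was 16722, the share was 18.4%. The part of depth was not tested further than by leaving out all cells under 2 times the UMI limit, which gave log2 ratios of -0.60 for macrophages, -0.20 for endothelial cells and -0.61 for fibroblasts.

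Against the background of all genes, the lineages differed. In macrophages 29 of 83 members (34.9%) were at least 1.5-fold below the epithelium, beside 42.8% of all genes, and the members' median log2 ratio was -0.51 beside -0.44. The macrophage value is thus close to that of genes at large. In endothelial cells 8 members (9.64%) were at least 1.5-fold lower beside 30.7% of all genes, with medians of -0.20 and -0.16. In fibroblasts 44 members (53.0%) were at least 1.5-fold lower beside 32.4% of all genes, with medians of -0.63 and -0.18. In pericytes or smooth muscle cells, which were only 11 cells, 40 members (48.2%) were lower beside 38.0%, with medians of -0.56 and -0.21.

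Single members left this order. Rps29 had 3498 CPM in macrophages against 2307 CPM in control epithelial cells (1.52-fold higher, 1.49 to 1.55), the 1 member at least 1.5-fold higher there, where 22.2% of all genes passed. Rpl37a was also above the epithelium in macrophages, at 2590 CPM, and in endothelial cells, at 2778 CPM. Next in macrophages came Rpl35a (2534 against 2679 CPM) and Rps25 (1680 against 1811 CPM), both just below the epithelium. Rpl28 was the single member above the epithelium in fibroblasts, with 4365 CPM against 3459 CPM (1.26-fold). Its end overlaps Ube2s on the other strand over 521 bases. Endothelial cells had more Rpl23 (4806 against 4139 CPM), Rps6 (1852 against 1623 CPM), Rps27 (1582 against 1404 CPM) and Rps24 (3962 against 3544 CPM). Rps6 is the substrate of the S6 kinases.

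Rpl7 was low in every other lineage. It had 3438 CPM in control epithelial cells, 1914 in endothelial cells, 1738 in fibroblasts, 1364 in pericytes or smooth muscle cells and 1225 in macrophages (2.81-fold lower than the epithelium). Rpl15 had 1516 CPM in macrophages (2.03-fold lower) but 2911 CPM in endothelial cells. These were the 2 members at least 2-fold lower in macrophages, where 27.0% of all genes passed. In fibroblasts the 4 members past 2-fold were Rpl10a (1199 against 2521 CPM), Rps26 (1086 against 2228 CPM), Rpl3 (1291 against 2634 CPM) and Rpl32 (2201 against 4404 CPM), beside 19.4% of all genes. The 1 member past 2-fold in endothelial cells was Rps27l (387 against 807 CPM), beside 19.4% of all genes. Rps2 had 2354 CPM in macrophages against 4392 CPM in the epithelium. Rpl22l1 was low in all 3 larger lineages, between 479 and 541 CPM against 948 CPM. In pericytes or smooth muscle cells 6 members were past 2-fold, Rpl7, Rpl3, Rpl14, Rplp0, Rpl32 and Rps19bp1, beside 26.9% of all genes.

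Ribosomal protein content moved with cell state inside each library. Cells were split by UMIs of a list after each cell had been thinned to 5960 UMIs, at least 2 against 0, and the share was taken from the unthinned cells. In control epithelial cells with UMIs of G2 and M phase genes such as Mki67 and Top2a the share was 24.2% (419 cells), against 19.5% in 1249 cells without. RSPO1-Fc cells gave 28.8% (1884 cells) and 25.8% (367 cells). S phase genes such as Mcm2 to Mcm7 gave 23.6% against 19.8% in control and 28.6% against 25.4% in RSPO1-Fc cells. Within each library the cells with cell cycle UMIs were also deeper, with medians of 44035 against 24831 UMIs in control and 25660 against 18902 UMIs in RSPO1-Fc cells for G2 and M phase. The part of depth in these splits was not tested. Cells with at least 2 G2 and M phase UMIs were 22.3% of control and 68.5% of RSPO1-Fc epithelial cells. The share was 25.8% in RSPO1-Fc cells without these UMIs and 24.2% in control cells with them. The part of the cell cycle in the difference between libraries was not tested.

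Clu, a gene of the regenerative epithelium, marked cells of lower share in both libraries. The share was 20.5% in 811 control cells with at least 2 Clu UMIs and 22.4% in 707 with 0, and it was 27.1% in 1912 RSPO1-Fc cells and 29.9% in 340. Median depths were 31202 and 25761 UMIs in control and 23517 and 23104 UMIs in RSPO1-Fc cells, and the part of depth was not tested. The stem list of Lgr5, Ascl2, Smoc2 and Axin2 went opposite ways, with 20.9% against 22.4% in control and 28.7% against 27.2% in RSPO1-Fc cells. The surface epithelium list gave 23.1% against 20.3% in control and 28.3% against 27.1% in RSPO1-Fc cells. For this list median depths were 38266 against 25298 UMIs in control and 24012 against 22465.5 UMIs in RSPO1-Fc cells. The part of depth in this split was not tested either. The paralog share of Rpl22l1 in control cells was 36.8% with surface epithelium UMIs and 41.3% without, the lowest and highest of the control splits. In the RSPO1-Fc splits it lay between 60.4% and 61.5%. Rpl13a likewise lay between 314 and 392 CPM in the control splits and between 4957 and 5848 CPM in the RSPO1-Fc splits.

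**Figure D5:**
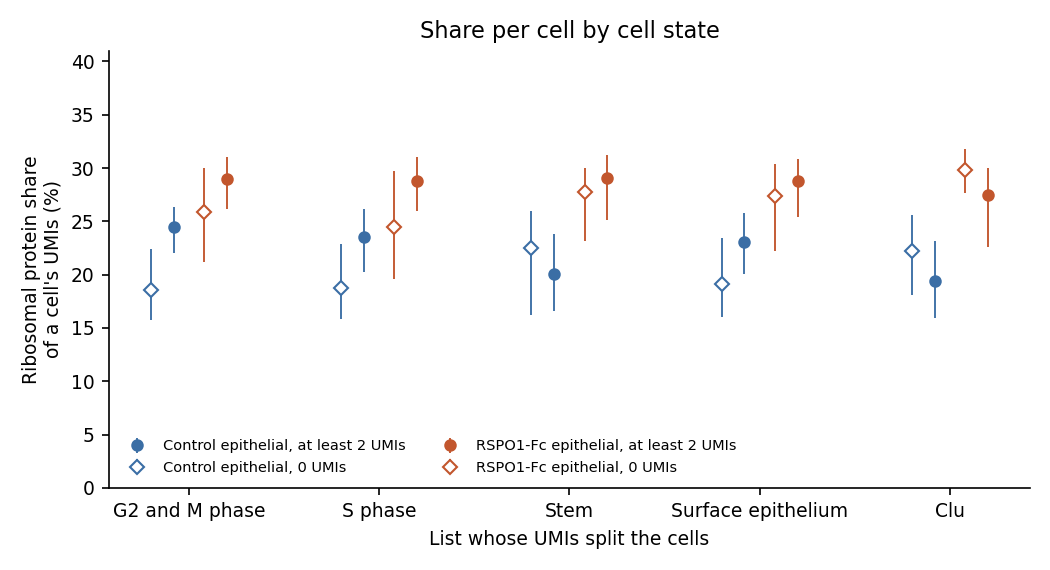
Median ribosomal protein share of a cell's UMIs (%, vertical axis, from 0) in epithelial cells with at least 2 UMIs (filled circles) or 0 UMIs (open diamonds) of 5 lists, in control (blue) and RSPO1-Fc (orange) libraries. Bars span the quartiles over cells; for G2 and M phase the control medians are 24.4% and 18.6% and the RSPO1-Fc medians 28.9% and 25.8%.

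Across epithelial cells the members moved together. As a description over 1881 control cells, the correlation of a canonical member's share with the summed share of the rest had a median of 0.84 and ran from 0.46 (Rpl10) to 0.92 (Rpl13). Over 2751 RSPO1-Fc cells the median was 0.82 and the range 0.59 to 0.92. All members of a cell share its depth and capture, which such values include. Rpl7l1 (0.20) and Rps19bp1 (0.17) stood below this range in control cells. Their levels were also far lower, at 68.3 and 57.6 CPM against at least 344 CPM for every canonical member, and the part of these low counts in the correlation was not tested. Rps27l (0.47) lay at the low end of the canonical range.

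Other genes of the pathway were mixed. Fau, which encodes a ribosomal protein as a fusion to a ubiquitin-like protein, had 3250 CPM in control and 2706 CPM in RSPO1-Fc epithelial cells. Rack1, a scaffold on the small subunit, had 1924 and 1754 CPM. Of 15 translation factors and other genes with oligopyrimidine mRNAs, 5 were at least 1.5-fold higher and 1 lower (median log2 ratio 0.34). Among all genes, 15.5% and 31.4% were past the same folds. Eef1g (749 and 1465 CPM), Npm1 (1153 and 1970 CPM) and Eif3f (445 and 737 CPM) led, and Nap1l1 had 430 and 266 CPM.

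Ribosome biogenesis genes were mostly higher in RSPO1-Fc cells. Of 28 tested, 22 were higher and 6 lower, with a median log2 ratio of 0.43. At least 1.5-fold higher were 8 and at least 1.5-fold lower 2, beside 15.5% and 31.4% of all genes. Nop10 (211 and 532 CPM), Fbl (123 and 248 CPM) and Gar1 (67.9 and 135 CPM), parts of the small nucleolar particles that modify rRNA, had the largest ratios. Ubtf, an RNA polymerase I factor, had 110 and 71.7 CPM. Among 10 tested regulators, 5 were higher and 5 lower (median log2 ratio -0.12). Eif4ebp1, a translational repressor under mTOR, had 40.0 CPM in control and 155 CPM in RSPO1-Fc cells, while Myc had 28.9 and 33.9 CPM. Proteins of the separate mitochondrial ribosome gave 64 higher and 12 lower of 76, with a median log2 ratio of 0.36. Of the 76, 13 were at least 1.5-fold higher and 1 lower (Mrps31, 42.9 and 23.3 CPM), beside 15.5% and 31.4% of all genes.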

How the data were processed

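The authors deposited whole UMI counts for each gene and barcode, with empty droplets included, from 1 library per culture, and groups follow the treatment label. Totals were 91675581 (control) and 89437327 (RSPO1-Fc) UMIs. Per the labels' protocols, 10x Chromium v2 chemistry was used and reads were aligned to mm10, with 58414 (control) and 131291 (RSPO1-Fc) reads per cell. Cell Ranger 2.1.1 and Seurat 3.1.1 were used per the submitters' processing notes, while Cell Ranger 3.1.0 made the control matrix per the file headers. Cell limits were 9810 and 5960 UMIs. The lowest totals kept were 9812 and 5967 UMIs, and the highest left out 9795 and 5957. Exactly 5 Epcam UMIs were found in 3 control and 9 RSPO1-Fc cells, and 4 in 4 and 7. No doublets were removed. Lineages needed under 5 Epcam UMIs, at least 10 UMIs and 3 markers of 1 list, and 3 times those of any other; of the T cell list 5 genes were matched. CPM were computed from UMIs summed over cells, log2 ratios with 1 CPM added to both sides and folds without. Ratio intervals are conditional binomial (95%, scipy 1.17.1), and a count of 0 was limited by 3 counts. Coordinates are from GENCODE M21. Scripts were tested on simulated data. Members, lists and the naming rule (the 10 highest and lowest ratios, 5 per lineage, the 10 most abundant, paralogs, chromosome X, up to 4 per pathway list) were chosen with earlier results of these data known. Alternatives covered scaling (edgeR 4.0.16), gates, doublets, copies and free RNA. Some genes chosen by this rule are left out of the text.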

Additional observations from a re-analysis of the deposited data

Results flagged for a closer look

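Near copies of members that only 1 of the 2 gene tables lists were outside the main counts. Gm49383, a copy of Rpl36al in the control table alone, had 1 UMI in control epithelial cells. The others had UMIs in epithelial cells of their library above the 3 counts that a count of 0 allows. In the RSPO1-Fc table alone stood Rpl23a-ps3 with 19307 UMIs, Gm8730 (a copy of Rplp0) with 18605, Rps26-ps1 with 5892, Gm10020 (Rpl15) with 5085, Rpl36-ps3 with 3914, Rpl13-ps3 with 3788, Rps18-ps3 with 1076, Gm10263 (Rps28) with 674 and Gm10709 (Rpl29) with 425. Small counts were found there for Gm5786 (175), Rps2-ps6 (173) and Gm6576 (140), all copies of Rps2, and for Gm4978 (27) and Rpl7a-ps3 (24), copies of Rpl7a. The control table alone lists Rpl36a-ps1 with 1616 UMIs and Gm11361 (Rps18) with 126. Added to Rpl23a, its copy brought the level from 2812 to 3087 CPM and the log2 ratio of RSPO1-Fc over control from 0.92 to 1.06, past 2-fold.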

How the results depend on the processing

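Doublets, free RNA, scaling and annotation limit these values, and 1 library per culture sets no bound on variation between cultures. No paired analysis was possible because each group held 1 library. None of the members at least 1.5-fold apart changed sign under the alternatives that were run, while with TMM the members below their control level went from 16 to 6, and among the named members Rpl13, Rplp1, Rps24 and Rps26, above that level in cells, were below it in free RNA. The log2 ratio of the family's share (0.39) was 0.35 without mitochondrial genes, 0.38 at 2 times the UMI limit, 0.35 without likely doublets (609 control and 244 RSPO1-Fc cells left out), and 0.38 over canonical members. With alternatives chosen after seeing the data it was 0.33 over members without near copy or overlap, 0.42 with copies added, 0.37 without Rpl13a, 0.43 in all cells and 0.39 in free RNA. The median log2 ratio (0.43) was 0.38, 0.41 and 0.39 under the first 3 of these settings, 0.77 with TMM, 0.41 with no filter on low values, 0.40 over canonical members, 0.40 without near copies, 0.45 with copies added, 0.47 in all cells and 0.46 in free RNA. Counts of members at least 2-fold higher, 2-fold lower, 1.5-fold higher and 1.5-fold lower (11, 1, 30 and 2) were 27, 0, 55 and 1 with TMM and 6, 0, 17 and 1 among the members without near copies, and the last was 1 with cells weighted equally and 1 in all cells. For macrophages, endothelial cells, fibroblasts and pericytes or smooth muscle cells, the log2 ratio of the share to the epithelium (-0.48, -0.19, -0.59 and -0.58) was -0.50, -0.18, -0.58 and -0.64 at 0 Epcam UMIs and -0.41, -0.14, -0.54 and -0.50 with cells weighted equally. The first 3 were -0.51, -0.23 and -0.60 without mitochondrial genes and -0.60, -0.20 and -0.61 at 2 times the UMI limit, where 0 pericytes or smooth muscle cells were left. With cells weighted equally, the paralog share of Rpl22l1 was 61.1% in RSPO1-Fc cells and that of Rps27l 35.4% in control and 28.6% in RSPO1-Fc cells. Over 46 named members, 289 of 667 values left their counting interval. The cause was not tested. Subtraction of free RNA was not run, since the RSPO1-Fc library had no class to estimate it from.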
